A study of Schizosaccharomyces pombe with 8 samples.

Results

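The genes described here encode 10 proteins of meiotic recombination and of the chromosome axis in the fission yeast Schizosaccharomyces pombe: dmc1, hop1, mek1, rec6, rec7, rec10, rec11, rec12, rec25 and rec27. They were chosen by name, as protein-coding gene entries with these symbols and the 36 coding parts that belong to them, and all 10 were found among the 5129 protein-coding genes of the series. Transcription was measured by NET-seq, which sequences the 3′ ends of RNA held by RNA polymerase II (Pol II), purified here through a flag tag on its subunit Rpb3 from exponentially growing cells. Untreated cells were compared with cells kept for 2.5 h in trichostatin A (TSA) at 20 µg/ml, an inhibitor of histone deacetylases (HDACs). Both groups carried the same tagged Rpb3, 2 biological replicates made up each group, and 1 input and 1 immunoprecipitated (IP, nascent RNA) library came from every culture. A lysate of S. cerevisiae cells that also carried Rpb3-flag was added to every lysate as a spike-in. Which untreated culture belongs with which TSA culture is not given by the labels. The comparison asks how HDAC inhibition changed the nascent and the input RNA of genes that a cell needs only in meiosis.

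In meiosis, recombination begins with programmed DNA breaks made by Rec12, the fission yeast relative of Spo11, together with partner proteins. Fission yeast assembles no synaptonemal complex. Its axis instead carries linear elements, built on chromosomes that are held by meiotic cohesin, and the broken ends are then paired with the homologue by the strand-exchange protein Dmc1. In growing cells these genes are known to be kept low, both at transcription and by removal of the RNA that is made.

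Reads over annotated features numbered 7218671 to 10436194 in the IP libraries and 8104143 to 12591213 in the inputs. At the median protein-coding gene this left 245 to 427 reads per IP library but 43 to 64 per input. The 10 genes together had 818 to 1418 reads in an IP library, 48 and 49 in the inputs of untreated cells, and 158 and 243 in those of TSA cells, so input values of single genes rest on few reads. Of 14 genes that are high in mating or meiotic cells and low in growing ones, mei2 and mfm2 were called higher with TSA. These calls (adjusted p under 0.05 and 2-fold or more) held under both nascent scalings and in the input, and none was called lower. Over all features 2.1% (spike-in), 4.45% (total-read) and 4.53% (input) were called higher. The median of the 14 was -0.16 with spike-in scaling and 0.56 in the input, beside -0.42 and -0.0016 over all features. Fus1 changed by -0.61 and -0.68 there. The summed level of these 14 genes was 1893 to 2427 spike-in scaled reads in the untreated IP libraries and 2142 to 2336 in the TSA IP libraries, while in the inputs it was 105 and 135 in untreated cells and 260 and 280.0 with TSA. All 14 had reads in both groups. A few cells that entered meiosis and a small change in every cell cannot be told apart in bulk libraries, and the part of mating or meiotic cells in the results below was not tested. Mei2, an RNA-binding protein that starts meiosis, had 80.0 and 46.0 spike-in scaled reads in untreated cells and 460 and 388 with TSA.

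Of the genes, 5 lie on chromosome I: dmc1, mek1 (SPAC14C4.03, 5231140 to 5232566, forward strand), rec10 (SPAC25G10.04c, 4301367 to 4303885, reverse strand), rec12 (SPAC17A5.11, 1772925 to 1774203, forward strand) and rec25 (SPAC17A5.18c, 1751076 to 1753681, reverse strand). On chromosome II lie hop1 (SPBC1718.02, 3472319 to 3474169, forward strand), rec6 (SPBC21B10.12, 1648948 to 1649671, reverse strand) and rec27 (SPBC577.05c, 757399 to 758197, reverse strand). On chromosome III lie rec7 (SPCC1753.03c, 1547051 to 1549069) and rec11 (SPCC4E9.01c, 1223308 to 1226925), both on the reverse strand. The coordinates are those of the deposited tables, and the methods name the build ASM294v2.

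The stretches of DNA before the genes are shown because 8 of the 10 genes share a short element there or, in rec10, across the start. In rec25 the element, 203 bases before the start, lies inside the neighbouring gene dbr1, which is 92 bases away. In a window from 250 bases before to 50 bases after each gene's start, the MCB box ACGCGT, the site of the MBF factor that drives genes of the G1 to S transition, was present for dmc1, hop1, rec7, rec10, rec11, rec12, rec25 and rec27. The same window held the box in 3.03% of 5117 protein-coding genes. The forkhead element GTAAACA or GTAAATA was found, on either strand, for dmc1, rec7, rec10 and rec11 and in 30.8% of all windows. The Ste11 box TTCTTTGTT (1.99% of windows) and the Atf1 site ATGACGT (1.54%), searched on both strands, matched none of the 10 windows. The window of rec6 lies wholly inside its RefSeq gene, which reaches 1650156 on chromosome II, so the DNA before that start was not searched. The letters come from the RefSeq genome ASM294v3. Joined from that genome at the coordinates of the deposited tables, the coding parts ran from a start to a stop codon in 5112 of 5118 genes and in all 10 genes here. The upstream stretches of dmc1, the gene with the largest change, of hop1, which holds 2 MCB boxes, and of rec11 and rec12, which were called in the input, read as follows, with both elements in capitals and with bases inside a RefSeq transcript or a neighbouring gene left out.
dmc1, upstream of the gene's start, chrI:3382024-3382263, forward strand: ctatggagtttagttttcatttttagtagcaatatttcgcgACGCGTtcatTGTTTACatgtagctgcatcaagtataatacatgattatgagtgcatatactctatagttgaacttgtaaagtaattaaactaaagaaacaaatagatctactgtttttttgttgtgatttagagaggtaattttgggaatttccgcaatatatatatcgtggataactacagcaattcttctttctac
hop1, upstream of the gene's start, chrII:3472069-3472318, forward strand: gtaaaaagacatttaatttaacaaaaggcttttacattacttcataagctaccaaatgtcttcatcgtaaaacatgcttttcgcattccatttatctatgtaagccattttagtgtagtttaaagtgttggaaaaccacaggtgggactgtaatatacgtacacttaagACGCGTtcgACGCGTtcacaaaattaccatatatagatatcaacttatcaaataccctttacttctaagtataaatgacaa
rec11, upstream of the gene's start, chrIII:1226969-1227173, reverse strand: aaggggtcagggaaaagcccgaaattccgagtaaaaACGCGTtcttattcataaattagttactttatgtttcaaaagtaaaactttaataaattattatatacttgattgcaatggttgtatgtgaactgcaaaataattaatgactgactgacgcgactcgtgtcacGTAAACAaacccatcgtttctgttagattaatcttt
rec12, upstream of the gene's start, chrI:1772675-1772924, forward strand: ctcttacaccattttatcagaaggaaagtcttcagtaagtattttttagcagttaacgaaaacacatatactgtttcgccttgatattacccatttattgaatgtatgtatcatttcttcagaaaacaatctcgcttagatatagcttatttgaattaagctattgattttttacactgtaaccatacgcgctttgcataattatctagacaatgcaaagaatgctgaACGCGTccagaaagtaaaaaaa
In dmc1 the box began 209 bases before the start, and a forkhead element on the opposite strand began at 199 bases. In rec11 the box lay at a like distance of 212 bases and the forkhead element at 79. The box began 81 and 72 bases before the start in hop1 and 22 bases before it in rec12. In rec10 it began 1 base before the start, so the rest of it lies inside the gene entry. A match is a description of these letters and shows no binding.

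**Figure D1:**
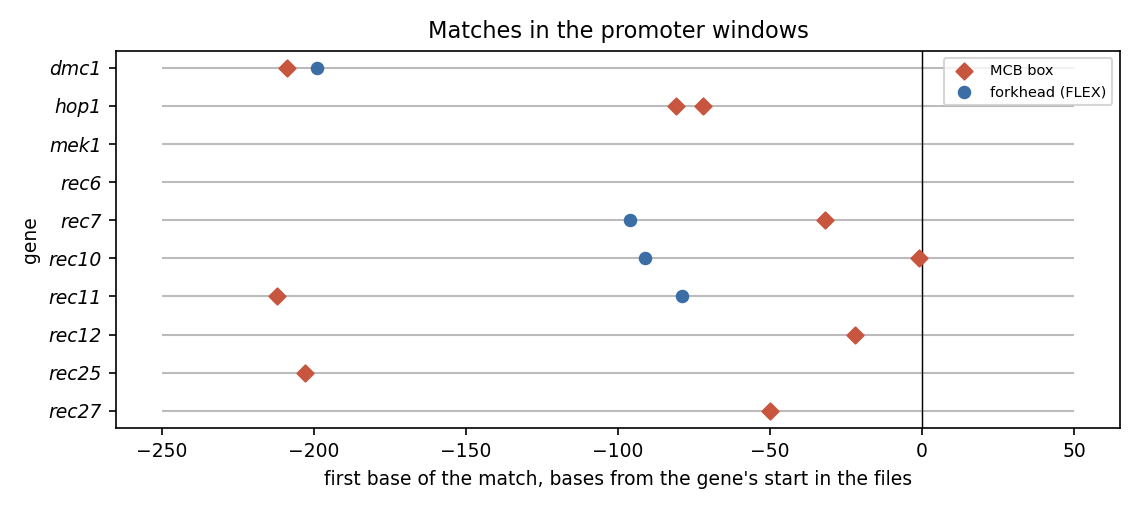
Positions of the MCB box (diamonds) and of the forkhead element (circles) in the promoter windows of the 10 genes, as the distance in bases of the first base of a match from the gene's start in the deposited tables. Mek1 and rec6 have neither element, and hop1 has 2 MCB boxes. The window of rec6 lies wholly inside its longer RefSeq gene, and the box of rec25 lies inside the neighbouring gene dbr1.

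Nascent transcription of dmc1 rose strongly with TSA, and that of the other 9 genes did not pass the test. Dmc1 is the meiosis-specific recombinase of the RecA family (SPAC8E11.03c, chromosome I, 3382274 to 3383404, forward strand). On the scale set by S. cerevisiae ribosomal protein genes it had 38.0 and 21.9 scaled reads in untreated cells and 170.0 and 237 with TSA, so the lowest TSA library lay far above the highest untreated one. The change was 2.56 ± 0.33 on the log2 scale (SE, limma, n = 2 against 2), which is 5.90-fold, with an adjusted p of 6.4e-12. In reads, 78 became 601. The ratio of these pooled reads, set against the summed scaling of each group's libraries, was 7.15, which is not the ratio of the mean scaled reads. Its exact 95% interval of 5.64 to 9.17 covers counting error only. Per kilobase, the untreated level of dmc1 (26.5 ± 10.1 scaled reads, SD) stood above 6.7% of protein-coding genes, and its TSA level (180 ± 41.8) above 74.9%. Scaled to total reads in place of the spike-in, the rise was 8.03-fold.

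Calls needed an adjusted p under 0.05 over all tested features and a change of 2-fold or more. On the spike-in scale 1 of the 10 genes was called higher and 0 lower, while over 8052 tested features 2.1% were called higher and 6.31% lower. At an unadjusted p under 0.05 the same 1 gene was higher and 0 were lower, beside 319 and 2415 of the 8052 features, and edgeR and DESeq2 on recovered reads also called 1 and 0. The median change of the 10 genes was -0.09, beside -0.42 over all features, and all 10 lay above that median, 4 of them above 0. On the total-read scale 1 gene was again called higher and 0 lower, against 4.45% and 0.843% of 8062 features, and at an unadjusted p under 0.05 4 were higher and 0 lower, beside 1097 and 576 of those features. There the median was 0.35, beside 0.03 over all features. The scales differ by 1 factor per library, which all features share, so a fall or rise of a single gene near 0 depends on which is used.

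**Figure D2:**
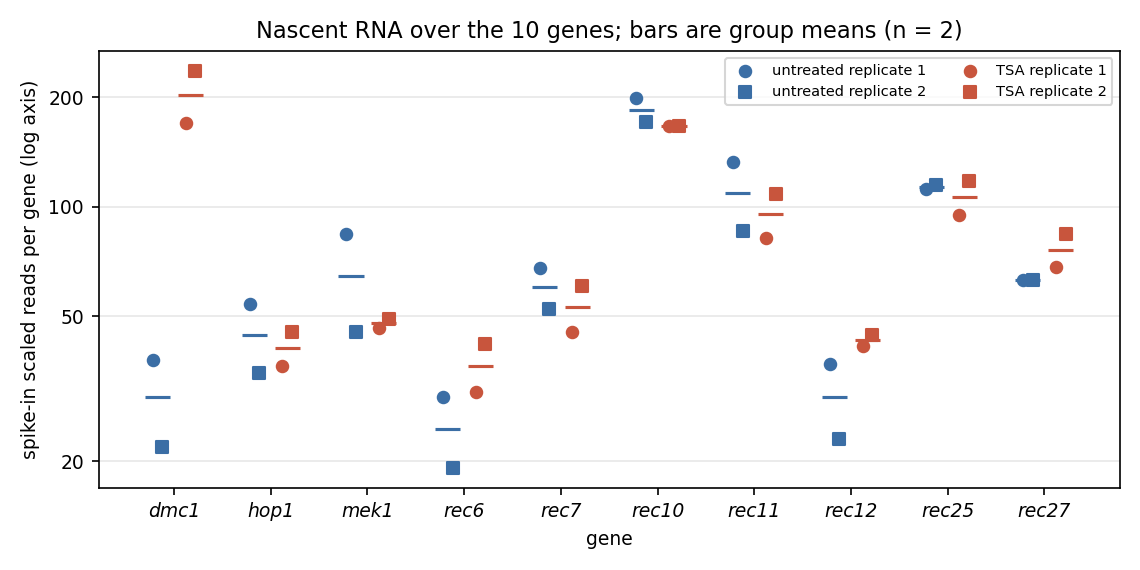
Spike-in scaled reads per gene (log axis) of the 10 genes in the 4 IP libraries, untreated in blue and TSA in red, with replicate 1 as circles, replicate 2 as squares and group means as bars. Only the TSA libraries of dmc1 lie apart from the untreated ones by more than the replicates differ.

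The break-forming genes stayed low, and those of rec6 and rec12 lay slightly higher with TSA. Rec12 carries the catalytic activity that cuts the DNA, and its gene had 37.0 and 23.0 spike-in scaled reads in untreated cells and 41.4 and 44.5 with TSA. Rec6 is a partner of Rec12, and its gene went from 30 and 19.1 to 30.9 and 42.0. In both genes the TSA libraries lay above the untreated ones, for rec6 by less than 1 scaled read. The log2 change was 0.47 ± 0.35 for rec12 (adjusted p = 0.318) and 0.48 ± 0.35 for rec6 (adjusted p = 0.307). On the total-read scale it was 0.89 for both, with adjusted p of 0.0110 for rec12 and 0.0125 for rec6, which falls short of 2-fold. Rec7, the relative of budding yeast Rec114 and a partner in break formation, had over its gene 68.0 and 52.5 scaled reads in untreated cells. With TSA it had 45.3 and 60.6. The groups overlapped, and the change was -0.17 ± 0.34 (adjusted p = 0.730).

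The genes of the axis and of meiotic cohesin did not pass the test in the nascent RNA. Rec10, a core component of linear elements, had 199.0 and 171 scaled reads in untreated cells and 167 and 167 with TSA, a change of -0.14 ± 0.31. Its TSA libraries lay just below the untreated ones, the only such case among the 10 genes. Rec25 and Rec27 are small linear element proteins that mark break hot spots. The gene of the first had 112.0 and 115 scaled reads in untreated cells and 94.9 and 118 with TSA, and that of the second 63.0 and 62.9 against 68.4 and 84.1. The change was -0.09 ± 0.32 for rec25 and 0.25 ± 0.33 for rec27, whose TSA libraries lay above the untreated ones. On the total-read scale it was 0.36 for rec25 (limma, adjusted p = 0.459) and 0.69 for rec27 (adjusted p = 0.0600). Hop1, the linear element protein with a HORMA domain, and Mek1, the checkpoint kinase that acts with it, had 54.0 and 35.0 and 84.0 and 45.4 scaled reads over their genes in untreated cells. With TSA these became 36.4 and 45.3 for hop1 and 46.4 and 49.3 for mek1, inside the untreated range of each gene. Rec11 is the meiotic cohesin subunit of chromosome arms, and its gene went from 133.0 and 85.9 to 82.3 and 108. Untreated replicate 1 was above untreated replicate 2 in 9 of the 10 genes, all but rec25, and the median feature differed between these libraries by 0.38 on the log2 scale.

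Without overlap between the groups, 4 genes were above and 1 below with spike-in scaling, where 8.05% of all features were above and 58% below. On the total-read scale 8 genes were above and 0 below, against 24.8% and 22.7% of features, and mek1 and rec25 overlapped. The order of the genes by level per kilobase in untreated cells ran from rec12 (23.4 ± 7.8 scaled reads, SD, n = 2) and hop1 (24.0 ± 7.3) to rec10 (73.4 ± 8.0) and rec27 (78.8 ± 0.1). In between stood dmc1 (26.5), rec7 (29.8), rec11 (30.2), rec6 (33.9), rec25 (43.5) and mek1 (45.3 ± 19.1). From rec12 up to rec6 (SD 10.6), each gene differed from the next by less than the SD of either. Rec25 had an SD of 0.78 and lay inside the range of mek1, and the step from mek1 to rec10 was larger than either SD. Even rec10 and rec27 stood above only 25.5% and 27.8% of protein-coding genes. With TSA dmc1 was first at 180 and the next was rec27 at 95.4 ± 13.8. The share of protein-coding genes below went from 27.8% to 50.9% for rec27 and from 25.5% to 34.0% for rec10. It went from 8.7% to 23.2% for rec6 and from 6.1% to 11.7% for rec12, and fell from 12.9% to 11.7% for mek1.

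In the input, all 10 genes had a higher mean with TSA, and 3 of them were called higher and 0 lower, while 4.53% of 7245 features were called higher and 1.56% lower. Dmc1 had 0 and 2 input reads in untreated cells and 79 and 57 with TSA. Scaled to total reads these were 0 and 1.82 against 46.5 and 49.3. The ratio of the pooled reads, set against the summed scaling of each group's libraries, was 59.1 with an exact 95% counting interval of 16.0 to 493. The fitted change of 4.71 ± 0.43 (log2, limma, adjusted p = 2.0e-06) depends on the pseudocount of 1.18 scaled reads. The untreated means of dmc1 and rec27 (0.91 each) lay under it, so both passed the filter for testing only through their TSA libraries. Rec11 rose from 5.78 and 11.9 scaled reads to 29.5 and 25.1, or from 21 to 79 reads in all, 2.98-fold with an adjusted p of 0.00533. Both TSA libraries held more than 2 times the higher untreated one. DESeq2 on recovered reads gave rec11 an adjusted p of 0.0842 with the authors' scaling. Rec12 had 2.89 and 0 scaled reads in untreated inputs and 8.84 and 5.19 with TSA, from 4 reads against 21, and was just called at 3.65-fold and an adjusted p of 0.0482. That call was lost when untreated replicate 2 was left out (adjusted p = 0.284), when TSA replicate 1 was (0.290) and when TSA replicate 2 was (0.0609), and edgeR gave 0.0597. It was kept without untreated replicate 1 (adjusted p = 0.0037).

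The remaining input values were small and did not reach a call. Rec10 went from 10.8 and 11.9 scaled reads to 20.6 and 25.9, a change of 0.96 ± 0.29 that passed the adjusted p (0.0390) but stayed under 2-fold. With edgeR on recovered reads rec10 was called, at 1.01 with the authors' scaling (adjusted p = 0.0333) and 1.03 with TMM factors (0.0378). Hop1 went from 1.44 and 2.74 to 5.89 and 6.91, a change of 1.24 ± 0.48 with an adjusted p of 0.0975. Rec25 went from 4.33 and 5.47 to 14.1 and 7.78, and its change of 0.95 ± 0.41 had an adjusted p of 0.132. In hop1, rec10 and rec25 every TSA input lay above every untreated one. Rec27, with 2 reads in untreated and 9 in TSA inputs, had a ratio of pooled reads of 3.91 and a counting interval of 0.809 to 37.2. Mek1 with 5 and 11 reads had 1.91 (0.612 to 7.02), so neither difference was detectable at this depth. Rec6 and rec7 overlapped between the groups, with changes of 0.32 ± 0.48 and 0.23 ± 0.55. In all, 8 genes lay above without overlap and 0 below, where 28.7% of all features were above and 29.1% below. At an unadjusted p under 0.05, 6 of the 10 were higher and 0 lower, while 1112 of the 7245 features were higher and 986 lower. The median change of the 10 genes was 1.06, beside -0.0016 over all features.

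**Figure D3:**
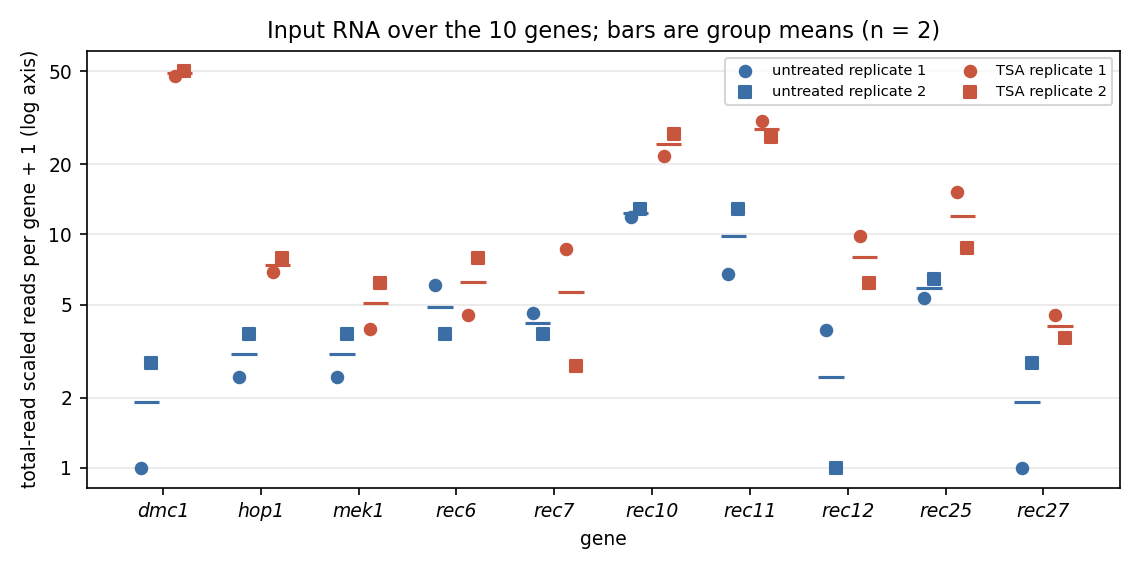
Total-read scaled reads per gene plus 1 (log axis) in the 4 input libraries, untreated in blue and TSA in red, with replicate 1 as circles, replicate 2 as squares and group means as bars. A value of 1 stands for 0 reads. Dmc1 rises from 0 and 1.82 to 46.5 and 49.3 scaled reads, and rec6 and rec7 overlap between the groups.

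Nascent and input changes, both with total-read scaling, were set against each other within each culture. For 8 of the 10 genes the log2 change was larger in the input than in the nascent RNA, rec6 and rec7 being the exceptions, and the median of the 10 was -0.61 beside 0.03 over all features. The largest differences were those of dmc1 (-1.70 ± 0.50, adjusted p = 0.467), rec11 (-1.29 ± 0.37, adjusted p = 0.467), rec12 (-0.98 ± 0.61) and hop1 (-0.90 ± 0.34). Limma called 0 genes higher and 0 lower, and over all 7183 features it also called 0% in either direction. At an unadjusted p under 0.05, dmc1, rec11 and hop1 were lower and no gene was higher, while 410 features were lower and 282 higher. No gene of the set thus passed a test of the difference between its nascent and input change.

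**Figure D4:**
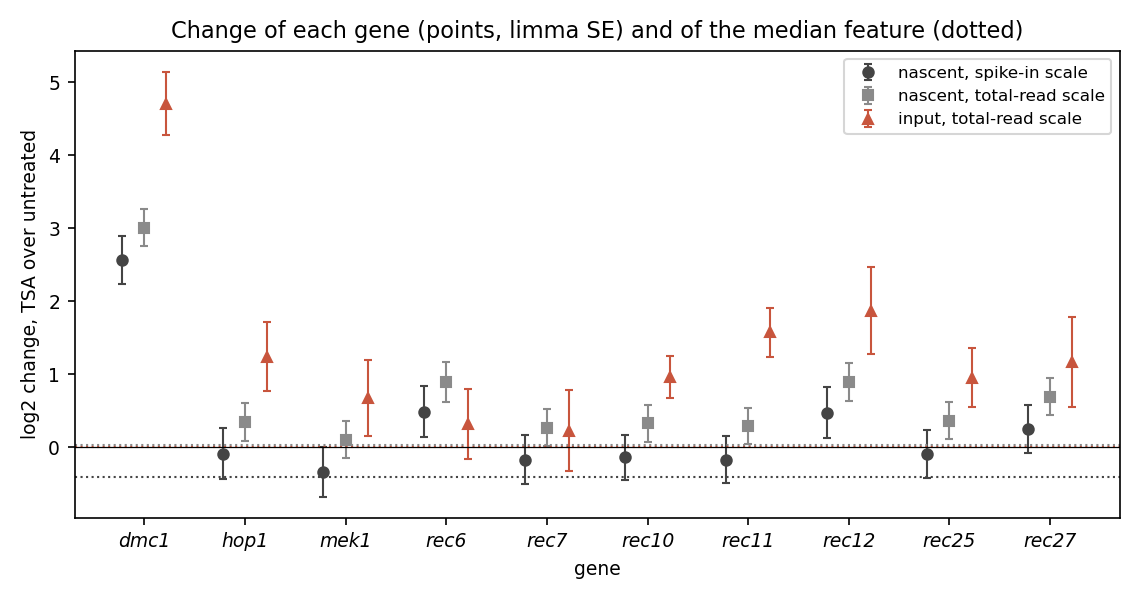
Log2 change of TSA over untreated for the 10 genes in the nascent RNA with spike-in scaling (circles), the nascent RNA with total-read scaling (squares) and the input (triangles), with the standard error from limma. Dotted lines are the medians of all tested features (-0.42, 0.03 and -0.0016). Dmc1 stands at 2.56, 3.01 and 4.71, and rec11 and rec12 at 1.57 and 1.87 in the input.

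A feature of the opposite strand overlaps 9 of the 10 genes, all but mek1, and at dmc1 the share of reads on the coding strand was higher in both TSA libraries than in either untreated one. The method is strand specific by the study's description, while the rule that assigned reads to strands is not given in the sources used here. The non-coding dmc1-antisense-1 (SPNCRNA.904), which spans all 1131 bases of dmc1, had 991 and 552 spike-in scaled reads in untreated cells and 290 and 565 with TSA. Its groups overlapped, and its change of -0.86 (adjusted p = 0.0295) did not reach 2-fold. Of the reads on both, dmc1 held 3.69% and 3.81% in untreated cells and 37.0% and 29.5% with TSA. XUT0660 covers the same stretch and had almost the same reads. In the input dmc1-antisense-1 was near level, with 15.2 and 11.9 scaled reads in untreated cells and 15.3 and 15.6 with TSA.

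At rec12 the share of the gene in the reads on both strands went from 14.9% and 22.6% to 36.8% and 33.1%. The antisense transcript rec12-antisense-1 had 211 and 78.8 spike-in scaled reads in untreated cells and 71.2 and 89.7 with TSA, a change of -0.66 with an adjusted p of 0.133. At hop1 the antisense transcript hop1-antisense-1 had 74.0 and 67.3 scaled reads in untreated cells and 91.6 and 86.5 with TSA, so here the antisense strand lay higher with TSA, though not past the test (0.31, adjusted p = 0.501). XUT0383 over the same gene behaved alike, at 0.28. At rec7 the rec7-antisense-1 transcript and the shorter tos1, tos2 and tos3 changed by -0.41, -0.38, -0.46 and -0.08, and the same-strand novelncTU_462 by -0.57, none of them called. Rec11-antisense-1 had 10 reads on average and went from 11 and 11.5 to 2.21 and 3.23 scaled reads (-0.99, limma, adjusted p = 0.0408). Its TSA mean of 2.72 lay under the pseudocount of 6.0, so it passed the filter for testing only through its untreated libraries. That the fitted change stayed just under 2-fold depends on this pseudocount. The part of antisense transcription in the change of the genes was not tested.

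Coding genes overlap the others. Rec6 lies wholly within the span of yox1 on the opposite strand, rec25 shares 2092 bases with pex6, rec27 shares 629 bases with SPBC577.04, and rec10 shares 36 bases with zip1. Their nascent changes were 0.01, -0.51, -0.39 and -0.61, and none was called. XUT0546, on the strand of rec25, changed by 0.63 and was not called. Of 17 antisense features over the 10 genes, 1 was called on the spike-in scale, XUT0867 over rec11, which was lower at a mean of 9 reads. Its TSA mean of 1.76 scaled reads lay under the pseudocount of 6.0, so it passed the filter for testing only through its untreated libraries. Of the 20 nearest protein-coding genes that do not overlap, 0 were called with spike-in scaling or in the input by limma, and 1 was called higher with total-read scaling, dpm2, which lies 318 bases from rec6. Rpb1, counted among the 20, lies 52203 bases from rec6. Over all features 2.1% were called higher and 6.31% lower with spike-in scaling, 4.45% and 0.843% with total-read scaling, and 4.53% and 1.56% in the input. At an unadjusted p under 0.05, 14 of these 20 neighbours were lower and 0 higher with spike-in scaling, and 5 were lower and 1 higher in the input. Over all features the same limit gave 2415 lower and 319 higher of 8052, and 986 lower and 1112 higher of 7245. Dpm2 had 31.2 and 48.7 total-read scaled reads in untreated cells and 95.9 and 83.0 with TSA, a log2 change of 1.07.

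**Figure D5:**
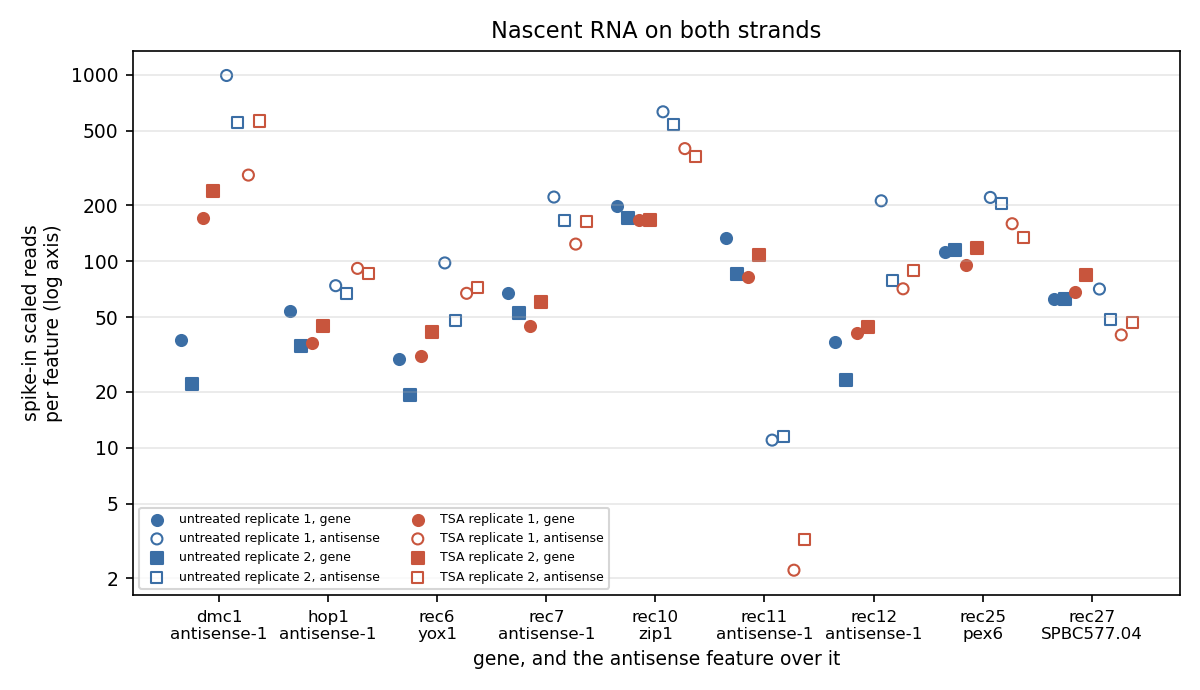
Spike-in scaled reads (log axis) of 9 genes (filled) and of the main antisense feature over each (open) in the 4 IP libraries, untreated in blue and TSA in red, with replicate 1 as circles and replicate 2 as squares. At dmc1 the gene rises from 38.0 and 21.9 to 170.0 and 237 while its antisense transcript overlaps between the groups.

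Coding parts leave out introns and untranslated ends. Summed per gene they gave 1 call, dmc1, at 3.85-fold on a scale with a pseudocount of 30 scaled reads (1.94 ± 0.27, adjusted p = 5.6e-10), and 0 lower, while 0.761% of 4601 genes were called higher and 2.96% lower. Rec6 was too low to be tested there. Dmc1 and rec12 had untreated means of 26.8 and 28.7, under that pseudocount, and passed the filter for testing only through their TSA libraries. Dmc1 had more reads with TSA in both of its coding parts, from 9 to 108 reads in the first of 73 bases and from 60 to 449 in the second of 926 bases. Per kilobase the first part had 505 scaled reads with TSA and the second 164, against 36.8 and 26.0 in untreated cells.

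Within other genes the coding parts did not move together, in values picked out after they were seen and not tested. The 7 parts of hop1 summed to 117 and 116 reads. Part 6, of 226 bases, went from 25 and 32 reads to 10 and 7, while part 5 went from 2 and 4 to 13 and 16 and part 1 from 3 and 3 to 11 and 10. In rec12 parts 1, 2, 3 and 5 had more reads with TSA and part 4 fewer, at 9 and 15 against 5 and 8. In rec27 the first part, of 68 bases, had 33 and 53 reads in untreated cells and 29 and 29 with TSA, while the second went from 6 and 11 to 31 and 21 and the third from 5 and 8 to 17 and 11. That first part lies outside the rec27 gene of the current RefSeq annotation, which ends at 758042 on chromosome II, and the deposited entry reaches 758197. In scaled reads per kilobase the second part of rec27 went from 38.5 to 109 and the third from 25.9 to 50.5. In rec25 the coding part of 453 bases held 40.4% of the reads of its 2606-base entry in untreated cells and 31.8% with TSA. Mek1 and rec7 had their highest level in the first coding part in both groups, 194 and 156 scaled reads per kilobase for mek1 and 142 and 183 for rec7.

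The Mmi1 motif TNAAAC, which in growing cells marks meiotic RNA for removal by the nuclear exosome, was counted on the coding strand of each gene. Rec27 had 9 in 799 bases, or 11.3 per kilobase, above 99.9% of protein-coding genes, while the median gene had 1.69 per kilobase. Rec10 had 11, rec11 15, rec25 9, mek1 5 and hop1 6, and per kilobase the lowest of these, hop1, stood above 91.1% of genes. Dmc1, rec12 and rec6, at 1.77, 1.56 and 1.38 per kilobase, lay near the median gene, and rec7 had 2.48, above 77.3%. Over coding parts alone the share of genes below was 77.8% for hop1, 84.4% for rec11 and 33.3% for rec7. A match is a description of the letters, and binding was not measured.

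Other genes of the pathway were described from lists. Of 15 further genes of break formation, the axis, cohesion and strand exchange, 1 was called higher with spike-in scaling, beside 2.1% of all features. With total-read scaling 3 were, beside 4.45%, and of 13 tested in the input 2 were, beside 4.53%. None was called lower in any, where 6.31%, 0.843% and 1.56% of all features were. These counts were not tested against those shares. Mde2, which helps to assemble the break machinery, had 6.0 and 4.38 spike-in scaled reads in untreated cells and 19.3 and 17.8 with TSA, a 2.2-fold change with an adjusted p of 0.0174. Its untreated values lay at or under the pseudocount of 6.0, so it passed the filter for testing only through its TSA libraries. Rec24, the relative of budding yeast Mei4 that works with Rec7, had 25.0 and 23.5 spike-in scaled reads against 44.2 and 41.2 with TSA. That change was not called (0.69, limma, adjusted p = 0.145). Rec24 was called on the total-read scale (2.13-fold) and in the input (4.21-fold, from 4 reads to 29). Mug20, a linear element protein that joins Rec25 and Rec27, was called on the total-read scale at 2.00-fold, just at the limit. Swi5, an accessory factor of strand exchange, was called in the input at 2.59-fold, from 13.7 and 10.03 scaled reads to 33.6 and 31.1. Rec8, the meiotic cohesin subunit that partners Rec11, had 142 and 92.4 spike-in scaled reads in untreated cells and 59.1 and 87.3 with TSA, a change of -0.63 ± 0.33 that was not called. The median change of this list was -0.17 with spike-in scaling, 0.27 with total-read scaling and 0.29 in the input, beside -0.42, 0.03 and -0.0016 over all features.

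Genes of break repair and cohesion that growing cells also use were set beside all features. Of 20 repair genes none was called in the nascent RNA under either scaling, with medians of -0.47 and 0.01, and 1 was called higher in the input. Of all features, 2.1% were called higher and 6.31% lower with spike-in scaling, and 4.45% and 0.843% with total-read scaling. In the input these shares were 4.53% and 1.56%, and lists this short cannot be told apart from them. The called gene was ctp1, the cofactor of break resection, at 25.3 and 26.5 scaled reads in untreated inputs and 61.3 and 50.1 with TSA (2.09-fold, adjusted p = 0.00333). Its nascent reads changed by -0.36 on the total-read scale used for the input (limma, adjusted p = 0.461) and by -0.83 on the spike-in scale. At an unadjusted p under 0.05, 7 of the 20 were lower and 0 higher with spike-in scaling, a share near that of all features (2415 of 8052 lower). Of 7 genes of mitotic cohesin and its loaders none was called in any comparison, and at an unadjusted p under 0.05 limma gave 0 in the nascent RNA and 2 higher in the input. Their medians were -0.35 with spike-in scaling and 0.24 in the input.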

How the data were processed

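NET-seq and input libraries of 4 cultures were analysed. Per the methods, the authors trimmed adapters with cutadapt, aligned with Bowtie (genome ASM294v2) and kept uniquely mapped reads. The counter and the annotation are not given in the sources used here. The deposited signal columns hold reads per feature times 1 factor per library, set by S. cerevisiae ribosomal protein genes or by total reads. The library with a factor of 1 holds raw counts as deposited. Deposited density columns are this signal over feature length. Whole reads were recovered for 100% of values (tolerance 0.001). Columns of summed replicates were not used. Correlations of deviations of same-numbered libraries were -0.205 and -0.242 (nascent) and 0.0181 (input), so numbers do not pair cultures.

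Of 19343 entries, 9111 were kept. Each comparison was fitted over all tested features with limma 3.58.1 (R 4.3.3, trend) on log2(value + pseudocount), the pseudocount being the 10th percentile of non-zero values (6.0, 6.58 and 1.18 for spike-in nascent, total-read nascent and input). Features with a mean above it were tested, with Benjamini-Hochberg adjustment. In the nascent fits limma shrank variances wholly to the trend, so the test adds little to the 2-fold limit. Fold changes are on the log2(value + pseudocount) scale, which understates those of low genes. Limma p values of the nascent fits thus rest on the spread of features at a like level, not on that of the gene's own 2 cultures per group. In the input and in nascent over input, the spread between a gene's own cultures counts in part. The methods name DESeq2 on counts, and since the deposited values are scaled, DESeq2 1.42.0 and edgeR 4.0.16 on recovered reads were alternatives, beside other pseudocounts, filters, scalings, a replicate block and leaving out each library. The genes and lists were chosen with earlier results of these data known. All 10 genes are named, list genes and neighbours where called, rec8 in any case, and overlapping features at a mean of 10 IP reads (XUT0867, under that mean, was named after its values were seen). The limma fit was tested on simulated data.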

Additional observations from a re-analysis of the deposited data

How the results depend on the processing

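Of 124 counts of called genes under alternatives, 117 kept within 1.5 times the reported count, and of 581 values of single genes 542 kept direction and call. On the total-read scale the 1 gene called higher became 3 with a pseudocount of 1 and 3 with edgeR at the authors' scaling, where rec6 and rec12 passed 2-fold, became 2 with edgeR and TMM factors, and ranged from 1 to 2 when 1 library was left out (2 without untreated replicate 2, where rec27 reached 1.00). In the input the 3 genes became 1 under DESeq2 with either scaling and ranged from 2 to 3 without 1 library. Rec10 was called there by edgeR with the authors' scaling (1.01) and TMM factors (1.03), and rec11 was lost under DESeq2. Rec12 kept its input call in 3 of 12 alternatives, and lost it also at a pseudocount of 1 (adjusted p = 0.0508), at 4 times the pseudocount (log2 change 0.95) and with TMM factors (0.0803) or DESeq2 (0.467), over a range of 0.0037 to 0.467. Among coding parts the 1 gene became 0 when only means above 4 times the pseudocount were tested, since dmc1 was then not tested. The cause of the others was not tested. Dmc1 kept its call in every alternative that tested it, between 2.08 and 2.89 with spike-in scaling, 2.44 and 3.29 with total-read scaling, 3.24 and 5.90 in the input and 1.07 and 2.86 over coding parts.

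Directions near 0 turned when 1 library was left out. On the spike-in scale the ranges were -0.36 to 0.19 for hop1, -0.74 to 0.0662 for mek1, -0.36 to 0.0179 for rec7, -0.47 to 0.13 for rec11 and -0.24 to 0.0544 for rec25. Over coding parts they were -0.29 to 0.0934 for hop1, -0.57 to 0.0329 for mek1, -0.22 to 0.0839 for rec7, -0.21 to 0.19 for rec10 and -0.33 to 0.0856 for rec11. In the input they were -0.0681 to 0.71 for rec6 and -0.58 to 1.03 for rec7, and for nascent over input -0.87 to 0.95 for rec7. Rec27 over input turned to 0.0683 with 4 times the pseudocounts.

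With the replicate block the counts of genes called higher were 1, 1, 3, 0 and 1 in the order of the comparisons above (spike-in, total-read, input, nascent over input, coding parts), and it changed no call. With the numbers crossed, a choice made after seeing the data, they were 1, 1, 2, 0 and 1. Input values are limited by depth, with 0 to 79 reads per gene and library.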

Other observations

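The MCB box was also searched in the windows of the other protein-coding genes. Of 147 genes with the box, the 10 genes left out, 2 were called higher on the spike-in scale (1.36%), and of 4846 genes without it 1.38% were. Their median changes were -0.51 and -0.49. With total-read scaling 6 of 147 (4.08%) and 2.56% were called higher, a difference that was not tested. In the input 6 of 146 genes with the box (4.11%) and 4.05% of those without were called higher, with medians of -0.02 and -0.05.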
